A study of Mus musculus with 4 samples.

Results

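The proteasome genes of mouse abdominal aortic grafts are described here across 4 RNA sequencing libraries. They were chosen by name: protein-coding genes whose symbol starts with Psm, then a letter from a to g and a digit. This gave 50 of the 54752 genes counted, and 4 pseudogenes with such names were left out. The libraries came from 2 groups, both taken 4 weeks after aorta transplantation. The group called ALLO held allografts undergoing chronic rejection, per the series title, and the group called ISO held grafts whose type the labels do not spell out (n = 2 libraries per group throughout). Tissue was labelled as aortic, RNA was total RNA depleted of ribosomal RNA, and the labels name no strain, sex, age, drug or genetic change in either group. Whether a group's libraries came from different animals is not stated in the labels. Each p-value thus reflects only spread between these samples, which the test used, edgeR, estimates in part from all genes tested. The ISO libraries differed in sex-linked transcripts and were not from the same tissue sample. The ALLO libraries differed in pancreas transcripts, with 282201 counts over 16 genes in replicate 1 and 107 in replicate 2. Whether the ALLO libraries came from the same animal is not known.

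The proteasome degrades proteins that carry ubiquitin. Its barrel-shaped core is built of alpha and beta subunits, of which Psmb5, Psmb6 and Psmb7 cut peptide bonds, and a regulatory particle of ATPases (Psmc) and other subunits (Psmd) recognises, unfolds and feeds in substrates. Under interferon-gamma, and constitutively in many cells of the immune system, Psmb8, Psmb9 and Psmb10 are built in place of these catalytic subunits to form the immunoproteasome. The activator PA28, made of Psme1 and Psme2, caps the core, and peptides cut in this way are carried by TAP to MHC class I molecules.

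Total counts ran from 18978538 to 20194854 in the ALLO libraries and from 17532344 to 18488823 in the ISO libraries. The 50 genes together took 58508 and 73908 counts in ALLO replicates 1 and 2, against 51543 and 54020 in ISO replicates 1 and 2. A pair of libraries stood apart. ALLO replicate 1 carried all 16 genes of a list of digestive enzymes and other secretory genes of exocrine pancreas at 100 counts or more. These took 1.49% of its counts, against at most 7.81e-04% in the other libraries, and the list was drawn up after its values were seen. Xist, expressed from an inactive X chromosome, had 10647 counts in ISO replicate 1 and at most 8 elsewhere, and Ddx3y of the Y chromosome had 0 counts there and at least 2105 elsewhere. Smooth muscle markers marked the ISO libraries as vessel wall and were far lower in ALLO. Their 8 genes summed to 1212 and 2486 counts per 1e6 mapped counts (CPM, scaled by TMM) in ALLO, against 28419 and 28486 CPM in ISO.

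The immunoproteasome genes were higher in ALLO and the constitutive ones were not. All 5 of Psmb8, Psmb9, Psmb10, Psme1 and Psme2 rose, by 2.30- to 6.77-fold (edgeR's quasi-likelihood test, Benjamini-Hochberg adjusted p of 0.00515 to 0.00852 over all genes tested). Among all 16498 genes tested, 18.4% rose at the same adjusted p under 0.05. In either direction 9 of the 49 proteasome genes tested passed, against 33.1% of all genes. None of the 31 constitutive subunits of core and regulatory particle rose and 3 fell, against 14.8% of all genes that fell. No constitutive subunit was higher at an unadjusted p under 0.05 either, nor by DESeq2 or limma-voom. The median log2 change was 1.81 for the 5 genes and -0.23 for the 31, beside 0.03 for all genes tested. The changes did not meet: the smallest of the 5 was 1.20 (Psme2), and the largest of the 31 was 0.29 (Psmd14). Summed over the 5 genes, the level was 555 and 669 CPM in ALLO, against 166 and 193 CPM in ISO. The 31 constitutive subunits summed to 2098 and 2343 CPM in ALLO, against 2540 and 2721 CPM in ISO.

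**Figure D1:**
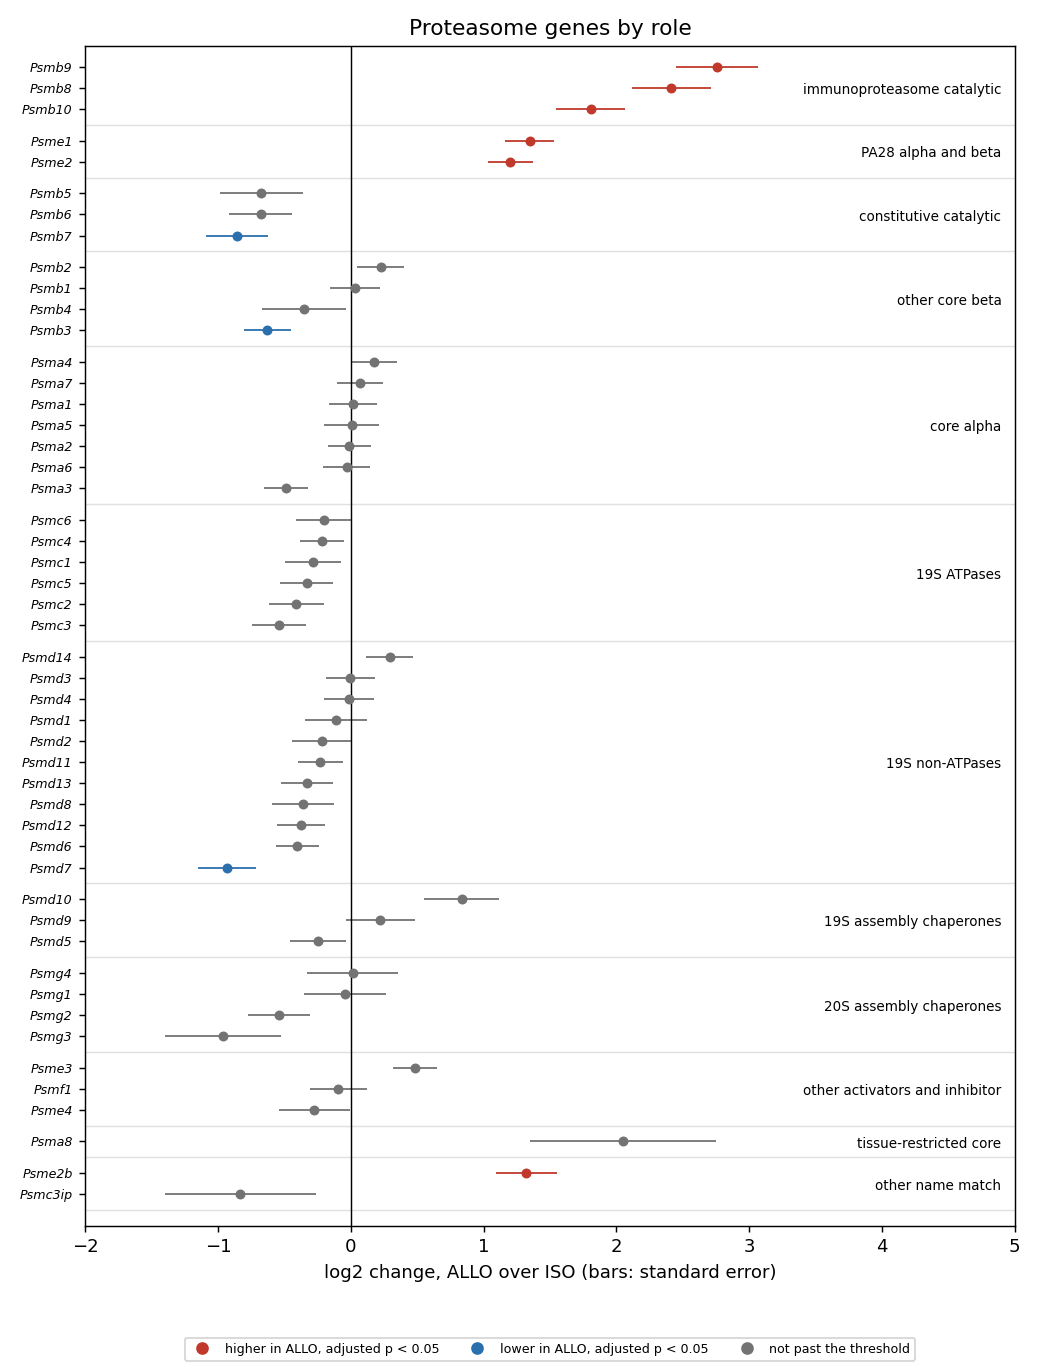
Log2 change of the 49 proteasome genes tested, ALLO over ISO, with standard errors as bars, grouped by role from top to bottom. Psmb9, Psmb8, Psmb10, Psme1, Psme2 and Psme2b lie to the right as higher in ALLO at an adjusted p under 0.05, and Psmb7, Psmb3 and Psmd7 are the 3 marked as lower.

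The 3 catalytic immunosubunits had the largest changes of the proteasome genes that passed. Psmb9 replaces Psmb6 at the beta1 site (ENSMUSG00000096727.2, chromosome 17, 34181988 to 34187764, mm10). It had 108 and 128 CPM in ALLO replicates 1 and 2, against 13.0 and 21.8 CPM in ISO replicates 1 and 2. Both ALLO libraries lay above both ISO libraries, a log2 change of 2.76 ± 0.31 (SE) or 6.77-fold (edgeR adjusted p = 0.00515). Psmb8, which takes the place of Psmb5 at the beta5 site (ENSMUSG00000024338.14, chromosome 17, 34197721 to 34201454), had 88.9 and 147 CPM in ALLO, against 21.0 and 23.3 CPM in ISO. ALLO replicate 2 was the highest of the 4 and the ISO libraries lay close together. The change was 2.41 ± 0.30, or 5.32-fold (edgeR adjusted p = 0.00611). Psmb10, the immunosubunit of the beta2 site (ENSMUSG00000031897.9, chromosome 8, 105935735 to 105938444), had 92.7 and 136 CPM in ALLO, against 29.9 and 35.5 CPM in ISO. The groups again did not overlap, and the change was 1.81 ± 0.26 on the log2 scale (edgeR adjusted p = 0.00852). Groups that lay apart were common in these data: both ALLO libraries were above both ISO libraries for 37.1% of all genes tested and below them for 35.4%.

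The PA28 genes changed less and varied less. Psme1, the alpha subunit (ENSMUSG00000022216.17, chromosome 14, 55578123 to 55581529), had 169 and 168 CPM in ALLO, against 62.9 and 69.7 CPM in ISO. The ALLO libraries were nearly equal and both above ISO, a change of 1.35 ± 0.18 or 2.54-fold (edgeR adjusted p = 0.00774, and 0.0549 without ISO replicate 1). Psme2, the beta subunit (ENSMUSG00000079197.10, chromosome 14, 55587441 to 55591113), had 96.5 and 90.2 CPM in ALLO, against 38.8 and 42.3 CPM in ISO. Its change was 1.20 ± 0.17, or 2.30-fold (edgeR adjusted p = 0.00849). Psme2b, a gene on chromosome 11 named after Psme2, also rose, with 47.1 and 45.7 CPM in ALLO against 15.8 and 21.3 CPM in ISO (edgeR adjusted p = 0.0136, and 0.0555 without ISO replicate 1). Its transcript matched that of Psme2 at 808 of 824 aligned bases (98.1%). How reads that fit both places were counted is not given in the sources used here, so the values of Psme2 and Psme2b are uncertain.

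Most markers of immune cells moved with these genes. All 8 T cell markers rose, beside 18.4% of all genes tested, and summed to 385 and 301 CPM in ALLO, against 10.1 and 1.93 CPM in ISO. Most of the 8 passed the filter on low counts only through ALLO (named below), so their count carries no weight beside that share. Of 6 macrophage markers 4 rose, and the sum was 1931 and 1598 CPM in ALLO, against 319 and 217 CPM in ISO. Mertk went the other way, with a log2 change of -0.37 and both ALLO libraries below both ISO libraries, and did not pass. The 5 B cell markers summed to 242 and 106 CPM in ALLO, against 38.6 and 0.422 CPM in ISO, and 0 of them passed in edgeR or DESeq2, against 1 in limma-voom and 1 at an unadjusted p under 0.05. The median log2 change of the 5 in edgeR was 3.17 with all libraries. It was 2.18 when ISO replicate 1 was the only ISO library, and 7.90 when ISO replicate 2 was. In ISO replicate 2 the highest of the 5, Cd79a, was at 0.241 CPM. The size of the 7.90 is therefore set by counts near the floor in a single library and is not a measured change. In a whole graft, more cells of a type and more RNA per cell cannot be told apart, and the part of infiltrating cells in the change was not tested. Between the ISO libraries, all 8 T cell and all 6 macrophage markers were higher in replicate 1, and all 5 immunoproteasome genes were lower in it. Cd3d, Cd3e, Cd3g, Cd8a and Cd8b1 were at 0 in ISO replicate 2, so they passed the filter on low counts only through ALLO. Cd4, at 2.10 and 0.121 CPM in ISO replicates 1 and 2, also passed it only through ALLO. The same held for the 5 B cell markers. Between the ALLO libraries, Psme1 and Psme2 were higher in replicate 1, as were the T cell and macrophage sums, and the 3 catalytic immunosubunits were lower in it. Of the 31 constitutive subunits, 9 were higher in replicate 1 of ISO and 10 in replicate 1 of ALLO. All 3 constitutive catalytic subunits were also lower in ALLO replicate 1. Each of these comparisons sets a single library against another, and none was tested. The share of all genes higher in replicate 1 is not given here. All 5 genes passed without ALLO replicate 1, the library with pancreas genes, with a median of 2.09, and 4 of the 5 without ISO replicate 1.

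**Figure D2:**
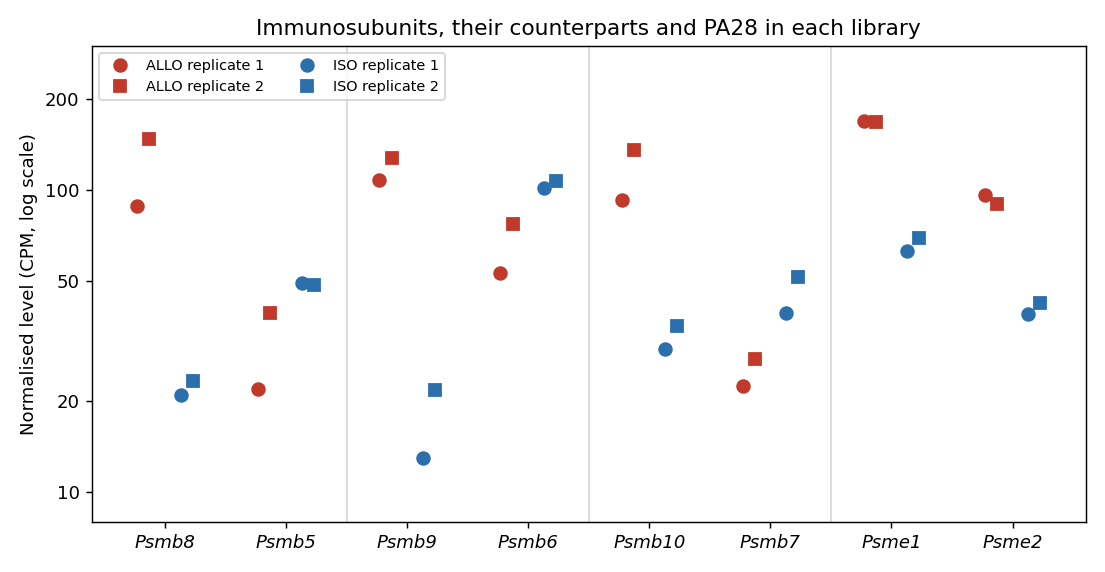
Normalised level in CPM on a log axis for the 3 immunosubunits, each beside its constitutive counterpart, and for Psme1 and Psme2, with ALLO libraries in red left of ISO libraries in blue and replicates 1 and 2 as circles and squares. The immunosubunits and PA28 genes are higher in both ALLO libraries, whereas Psmb5, Psmb6 and Psmb7 are lower in both.

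The promoters of the 5 genes that rose together are shown with those of the counterparts Psmb5 and Psmb6, to compare the sequence around their start sites. Each is 300 bases, from 250 before to 50 after the start site, from RefSeq on GRCm38.p6 (the same build as mm10), printed 5′ to 3′ on the gene's strand. Of the 50 genes, 42 matched the table by symbol, and Psmb7 is named only. Capitals mark matches, on either strand, to GAAA, 2 free bases and GAAA (the core of the interferon-stimulated response element), TTCNNNGAA (the gamma-activated site) or TGACNNNGC (the antioxidant response element read by NFE2L1 and NFE2L2). No match overlapped another in these windows.
Psmb8, chr17:34197945-34198244, plus strand: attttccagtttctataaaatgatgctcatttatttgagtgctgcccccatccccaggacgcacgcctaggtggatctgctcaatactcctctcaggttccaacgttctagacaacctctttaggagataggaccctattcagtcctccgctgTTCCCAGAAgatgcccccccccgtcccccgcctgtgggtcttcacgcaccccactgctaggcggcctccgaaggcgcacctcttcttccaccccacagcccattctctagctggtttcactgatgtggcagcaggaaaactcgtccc
Psmb9, chr17:34187281-34187580, minus strand: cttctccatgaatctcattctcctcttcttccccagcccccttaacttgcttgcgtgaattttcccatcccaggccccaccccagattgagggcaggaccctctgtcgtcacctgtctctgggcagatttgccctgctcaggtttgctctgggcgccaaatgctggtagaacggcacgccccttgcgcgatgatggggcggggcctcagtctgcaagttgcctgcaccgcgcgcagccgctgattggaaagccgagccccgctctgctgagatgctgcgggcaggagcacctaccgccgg
Psmb10, chr8:105938343-105938642, minus strand: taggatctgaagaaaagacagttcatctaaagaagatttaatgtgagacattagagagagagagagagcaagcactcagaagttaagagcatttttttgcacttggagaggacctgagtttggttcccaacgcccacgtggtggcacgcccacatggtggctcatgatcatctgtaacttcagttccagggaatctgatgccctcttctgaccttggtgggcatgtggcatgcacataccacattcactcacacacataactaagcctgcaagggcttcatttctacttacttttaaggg
Psme1, chr14:55578244-55578543, plus strand: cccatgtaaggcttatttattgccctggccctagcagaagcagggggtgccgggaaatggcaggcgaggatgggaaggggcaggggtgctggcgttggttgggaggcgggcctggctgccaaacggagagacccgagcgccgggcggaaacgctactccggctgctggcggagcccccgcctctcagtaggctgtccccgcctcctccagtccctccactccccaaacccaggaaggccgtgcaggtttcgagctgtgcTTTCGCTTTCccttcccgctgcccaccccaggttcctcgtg
Psme2, chr14:55591052-55591351, minus strand: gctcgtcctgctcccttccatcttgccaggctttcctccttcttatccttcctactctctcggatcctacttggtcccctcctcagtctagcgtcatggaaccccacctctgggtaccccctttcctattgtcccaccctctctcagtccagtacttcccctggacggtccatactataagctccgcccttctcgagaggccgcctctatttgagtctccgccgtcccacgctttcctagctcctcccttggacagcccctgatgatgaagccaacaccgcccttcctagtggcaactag
Psmb5, chr14:54617946-54618245, minus strand: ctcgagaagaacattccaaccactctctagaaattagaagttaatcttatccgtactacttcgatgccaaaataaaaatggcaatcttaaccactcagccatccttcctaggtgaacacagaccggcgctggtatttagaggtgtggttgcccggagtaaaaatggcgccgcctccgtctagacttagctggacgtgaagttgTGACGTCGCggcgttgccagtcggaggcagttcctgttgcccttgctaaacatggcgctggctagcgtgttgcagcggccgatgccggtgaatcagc
Psmb6, chr11:70525107-70525406, plus strand: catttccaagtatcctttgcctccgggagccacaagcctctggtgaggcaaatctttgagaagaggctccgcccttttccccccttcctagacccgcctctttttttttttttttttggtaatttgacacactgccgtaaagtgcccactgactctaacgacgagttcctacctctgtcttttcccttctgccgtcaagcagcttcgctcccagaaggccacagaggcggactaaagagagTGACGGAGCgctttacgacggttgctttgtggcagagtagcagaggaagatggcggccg

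Psmb8 held a gamma-activated site match, TTCCCAGAA, whose near end lay 89 bases before the start site. Psme1 held the response element core, as TTTCGCTTTC on the printed strand, from base 10 after the start site. Psmb9, Psmb10 and Psme2 held none of the 3 motifs in these windows. For Psmb8, Psmb9 and Psme1 the whole window lay within the gene as counted, so sequence before its outermost start was not searched. Both counterparts held the antioxidant motif, TGACGTCGC in Psmb5 and TGACGGAGC in Psmb6, and none of the 5 immunoproteasome genes did. Among the 25 constitutive subunits with a promoter in the table it was found in 4, Psmb5, Psmb6, Psmc6 and Psmd12. The response element core was found in 2 of the 25, Psmb3 and Psmd4, and the gamma-activated site in 1, Psmd2. Of all 32851 promoters of this length, 3.44% held the response element core, 8.30% the gamma-activated site and 12.4% the antioxidant motif. These are matches of letters only.

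Psmb9 and Psmb8 lie together in the major histocompatibility complex on chromosome 17. A stretch of 34334 bases held Psmb9, Tap1, Psmb8 and Tap2 and no other protein-coding gene in GENCODE M21. Tap1 and Tap2 encode the transporter that carries proteasome products into the endoplasmic reticulum. Tap1 had 312 and 457 CPM in ALLO, against 35.0 and 55.4 CPM in ISO, a log2 change of 3.09 ± 0.35 (edgeR adjusted p = 0.00531). Tap2 had 90.4 and 119 CPM in ALLO, against 31.9 and 36.6 CPM in ISO, a change of 1.61 ± 0.22 (edgeR adjusted p = 0.00759). All 4 genes of the stretch thus rose. In GENCODE M21, other genes overlap 14.7% of the 3381 exonic bases of Psmb8, the largest overlap being antisense. The deposited length of Psmb8 is 2736 bases, so part of that overlap may lie outside the counted exons. For Psmb9 the overlap was 5.79%, the largest with Tap1 on the opposite strand. Of the constitutive counterparts, Psmb7 had 11.8% and Psmb5 12.1% of exonic bases overlapped, and Psmb6 had 0%. The strand setting of the counting is unknown, so reads there cannot be assigned to one partner. On chromosome 14, Psme1 and Psme2 enclose a single other protein-coding gene, Emc9, a subunit of a membrane protein insertion complex. Emc9 had 4.47 and 4.72 CPM in ALLO, against 15.0 and 13.5 CPM in ISO, and fell by 1.63 ± 0.28 on the log2 scale (edgeR adjusted p = 0.0135). Its neighbours on both sides moved in the opposite direction.

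The constitutive catalytic subunits were lower in both ALLO libraries than in both ISO libraries, as were 35.4% of all genes tested. Only 1 of the 3 passed. Psmb7, the trypsin-like subunit (ENSMUSG00000026750.6, chromosome 2, 38588036 to 38644087), had 22.5 and 27.6 CPM in ALLO, against 39.4 and 51.4 CPM in ISO. The change was -0.86 ± 0.23 (edgeR adjusted p = 0.0439). Without any 1 of the 4 libraries it no longer passed (edgeR adjusted p of 0.0590 to 0.236). Psmb6, the caspase-like subunit (ENSMUSG00000018286.6, chromosome 11, 70525367 to 70527858), had 53.1 and 77.0 CPM in ALLO, against 101 and 107 CPM in ISO, a change of -0.68 ± 0.24 (edgeR adjusted p = 0.0850). Psmb5, the chymotrypsin-like subunit and the main target of bortezomib (ENSMUSG00000022193.7, chromosome 14, 54614119 to 54618022), had 21.9 and 39.3 CPM in ALLO, against 49.1 and 48.6 CPM in ISO. ALLO replicate 1 was the low one, and the change was -0.67 ± 0.31 (edgeR adjusted p = 0.159). Without ALLO replicate 2 both Psmb5 and Psmb6 passed as lower (edgeR adjusted p = 0.0253 and 0.0319), and Psmb5 then changed by -1.15.

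For each catalytic site, the immunosubunit's share of the pair's transcripts was read within a library, in counts per kilobase of exon. This measure does not depend on library scaling. It is a share of RNA over the whole graft, and subunits built into proteasomes were not measured. Psmb8 made up 57.1% and 55.2% of the beta5 pair in ALLO replicates 1 and 2, against 12.3% and 13.6% in ISO replicates 1 and 2. The mean was 56.1% ± 1.37 in ALLO and 13.0% ± 0.89 in ISO (SD, n = 2). Psmb9 made up 51.1% and 45.9% of the beta1 pair in ALLO, against 6.15% and 9.44% in ISO, means of 48.5% ± 3.67 and 7.80% ± 2.33. Psmb10 made up 89.2% and 90.8% of the beta2 pair in ALLO, against 60.4% and 58.1% in ISO, means of 90.0% ± 1.16 and 59.2% ± 1.601. The shares were thus higher in ALLO by 43.2, 40.7 and 30.8 percentage points, many times the spread between replicates. In each of the 3 pairs the exact two-sided permutation test over libraries gave p = 0.333, also after adjustment over the 3 pairs, which is the smallest value that 2 libraries against 2 allow. The ratio of immunosubunit to counterpart was 8.60-fold higher in ALLO for Psmb8, 11.4-fold for Psmb9 and 6.22-fold for Psmb10.

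**Figure D3:**
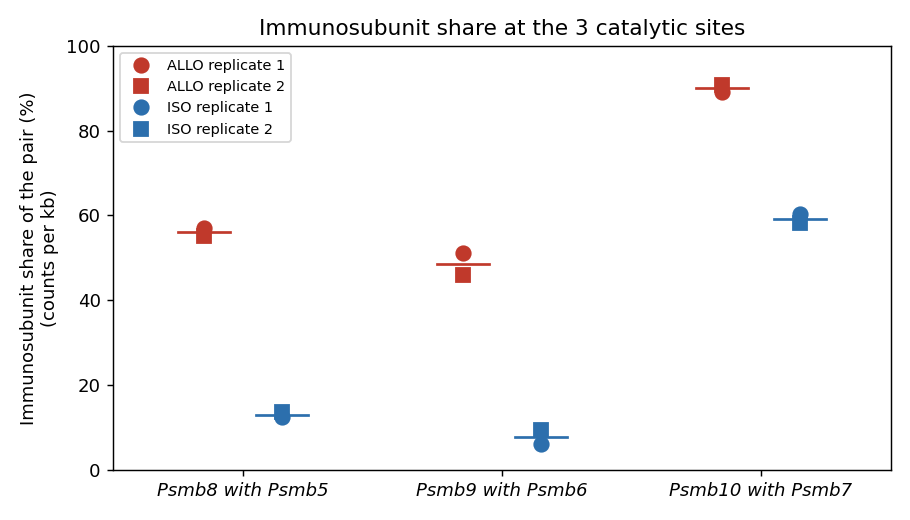
Share of the immunosubunit in each pair, in percent of the summed counts per kilobase, with ALLO libraries in red left of ISO libraries in blue, replicates as circles and squares and group means as lines. All 3 pairs are higher in ALLO, and the beta2 pair starts highest, at 59.2% in ISO.

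Set against the median of the 31 constitutive subunits in the same library, in counts per kilobase, Psmb8 and Psmb9 went past most of the machinery. Psmb8 stood at 1.33 and 1.77 times that median in ALLO, against 0.264 and 0.284 times in ISO. Psmb9 stood at 1.21 and 1.15 times in ALLO, against 0.122 and 0.199 times in ISO. In both ISO libraries each of them lay below all 31 constitutive subunits. In ALLO replicates 1 and 2, Psmb8 ranked 10 and 3 when set among the 31, and Psmb9 ranked 12 and 11. Psme1 ranked above all 31 in both ALLO libraries, at 3.13 and 2.502 times the median, against 0.976 and 1.05 times in ISO. These levels lean on the deposited gene length, which counts every annotated exonic base. The shares lean on it too. Psmb8 made up 68.3% ± 1.21 of its pair in ALLO and 20.0% ± 1.26 in ISO with the length of the longest coding transcript, and 79.6% ± 0.905 in ALLO and 31.2% ± 1.68 in ISO in counts without division by length (SD, n = 2). Psmb9 made up 64.7% ± 3.35 in ALLO and 14.1% ± 3.94 in ISO without division by length. With coding transcript length, the share of Psmb10 in its pair was 78.5% and 81.4% in ALLO, against 40.2% and 38.0% in ISO.

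Of the structural subunits of the core, 1 passed. With 2 libraries per group, a change that did not pass is not shown to be absent. The 7 alpha subunits, which form the gated outer rings, had a median log2 change of 0.01, from 0.18 (Psma4) to -0.49 (Psma3). Of these, 4 overlapped between groups, 2 lay apart as higher in ALLO and 1 as lower. Among all genes tested, 37.1% lay apart as higher and 35.4% as lower. None of the 7 passed in edgeR, DESeq2 or limma-voom, and 1, Psma3, was lower at an unadjusted p under 0.05. Psma3 had 50 and 52.7 CPM in ALLO, against 71.3 and 72.8 CPM in ISO (edgeR adjusted p = 0.0750). Psma6, the highest constitutive subunit per length in every library, had 74.5 and 86.5 CPM in ALLO, against 80.5 and 84.3 CPM in ISO. Of the 4 beta subunits without catalytic activity, Psmb2 was at 0.22, Psmb1 at 0.03 and Psmb4 at -0.35, and Psmb3 fell. Psmb3 (ENSMUSG00000069744.7, chromosome 11) had 47.4 and 56.2 CPM in ALLO, against 79.8 and 80.2 CPM in ISO, a change of -0.63 ± 0.18 (edgeR adjusted p = 0.0495). It no longer passed when any 1 of the 4 libraries was left out (edgeR adjusted p of 0.0502 to 0.210).

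Most subunits of the regulatory particle had negative changes, and 1 passed. All 6 ATPases, the ring that unfolds substrates, had negative log2 changes, from -0.21 (Psmc6) to -0.54 (Psmc3), and none passed in edgeR, DESeq2 or limma-voom. Psmc3 had 78.8 and 93.1 CPM in ALLO, against 136 and 114 CPM in ISO (edgeR adjusted p = 0.101), and was the 1 ATPase lower at an unadjusted p under 0.05. Among 11 subunits without ATPase activity 10 were negative and 1 passed. That was Psmd7, the lid subunit that pairs with the deubiquitinase Psmd14 (ENSMUSG00000039067.5, chromosome 8), with 50.1 and 68.8 CPM in ALLO against 113 and 114 CPM in ISO. It fell by 0.93 ± 0.22 on the log2 scale (edgeR adjusted p = 0.0303). The call was lost without ALLO replicate 1, ISO replicate 1 or ISO replicate 2 (edgeR adjusted p of 0.0619, 0.0813 and 0.0925). Psmd14 itself, which cuts ubiquitin chains from substrates, had the highest log2 change of the group, 0.29, with 48.5 and 48.3 CPM in ALLO against 36.5 and 42.5 CPM in ISO (edgeR adjusted p = 0.263). The ubiquitin receptor Psmd4 overlapped between groups, at 71.0 and 85.6 CPM in ALLO and 81.9 and 76.5 CPM in ISO.

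The size of these small changes depends on the scaling. With scaling by library size alone, which raised the median of all log2 changes by 0.19, the median of the 31 constitutive subunits was -0.041 and 19 of 31 were negative, against 24 of 31 with the composition scaling. With library size alone Psmb7, Psmb3 and Psmd7 had log2 changes of -0.67, -0.43 and -0.74 and none passed (edgeR adjusted p = 0.0995, 0.142 and 0.0674). The separation of the 5 immunoproteasome genes from the 31 is a matter of ratios within a library and does not turn on that choice.

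Assembly factors and other regulators did not pass in edgeR, and Psmd10 and Psme3 came nearest to the threshold. Psmd10 (gankyrin), an X-linked chaperone of the regulatory particle's base, had 15.3 and 21.5 CPM in ALLO, against 10.4 and 10.3 CPM in ISO (log2 change 0.83 ± 0.28, edgeR adjusted p = 0.0792). DESeq2 called it higher. Its level was about equal in ISO replicate 1, the library with Xist, and in ISO replicate 2. The other base chaperones Psmd5 and Psmd9 had changes of -0.25 and 0.22, and 25.5% of the exonic bases of Psmd9 overlapped another gene. The core chaperones Psmg1, Psmg2, Psmg3 and Psmg4 ranged from -0.96 (Psmg3, at 2.26 and 2.95 CPM in ALLO against 6.08 and 4.10 CPM in ISO) to 0.01 (Psmg4). Psme3, which forms the nuclear PA28 gamma activator, had 64.7 and 69.6 CPM in ALLO, against 48.0 and 48.3 CPM in ISO (0.48 ± 0.16, edgeR adjusted p = 0.0798). Psme4, the activator PA200, and Psmf1, the regulator PI31, were at -0.27 and -0.10 and overlapped between groups.

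Subunits of specialised proteasomes were scarce. Psmb11, the thymic cortex form of the beta5 subunit, had 0 counts in all 4 libraries, where a floor of 6 counts allows at most 0.297 to 0.342 CPM of library total. Psma8, the alpha subunit of testis, had 16 and 26 counts in ALLO against 4 and 4 in ISO and passed the filter on low counts only through ALLO (edgeR adjusted p = 0.0798). Psmc3ip matched the naming rule but encodes a recombination factor, not a subunit. It had 1.64 and 2.00 CPM in ALLO, against 2.05 and 4.47 CPM in ISO.

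Genes that act before and after the proteasome were followed in 4 lists from textbook knowledge. Of 12 genes of MHC class I peptide loading, 9 rose and 3 did not pass, beside 18.4% of all genes tested that rose. The median log2 change was 1.72. Nlrc5, the transactivator of class I genes, had 245 and 179 CPM in ALLO, against 16.96 and 25.2 CPM in ISO (3.33 ± 0.31, edgeR adjusted p = 0.00395). Tapbpl, a peptide editor, had 56.1 and 61.4 CPM in ALLO, against 15.6 and 17.4 CPM in ISO (edgeR adjusted p = 0.00464). B2m, the light chain of class I, had 4051 and 3236 CPM in ALLO, against 696 and 721 CPM in ISO (edgeR adjusted p = 0.00811). The 3 that did not pass, Calr, Canx and Pdia3, are general chaperones of the endoplasmic reticulum, with changes of -0.05, 0.04 and 0.25.

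Of 11 genes of interferon-gamma signalling 9 rose and 2 did not pass, beside 18.4% of all genes tested that rose, with a median of 1.69. Ifng itself, which passed the filter on low counts only through ALLO, had 63 and 57 counts in ALLO and none, 0 and 0, in ISO. That is at least 8.18-fold higher on a floor of 6 counts per library. The list's median was 1.69 with Ifng at that bound too. Irf1, which acts on immunoproteasome promoters, had 161 and 198 CPM in ALLO, against 35.3 and 42.2 CPM in ISO (2.21 ± 0.22, edgeR adjusted p = 0.00444). Irf8, a factor of myeloid and B cells, had 184 and 264 CPM in ALLO, against 9.18 and 5.61 CPM in ISO (edgeR adjusted p = 0.00319). These genes and the immunoproteasome were higher in the same 2 libraries, and no link between them was tested.

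**Figure D4:**
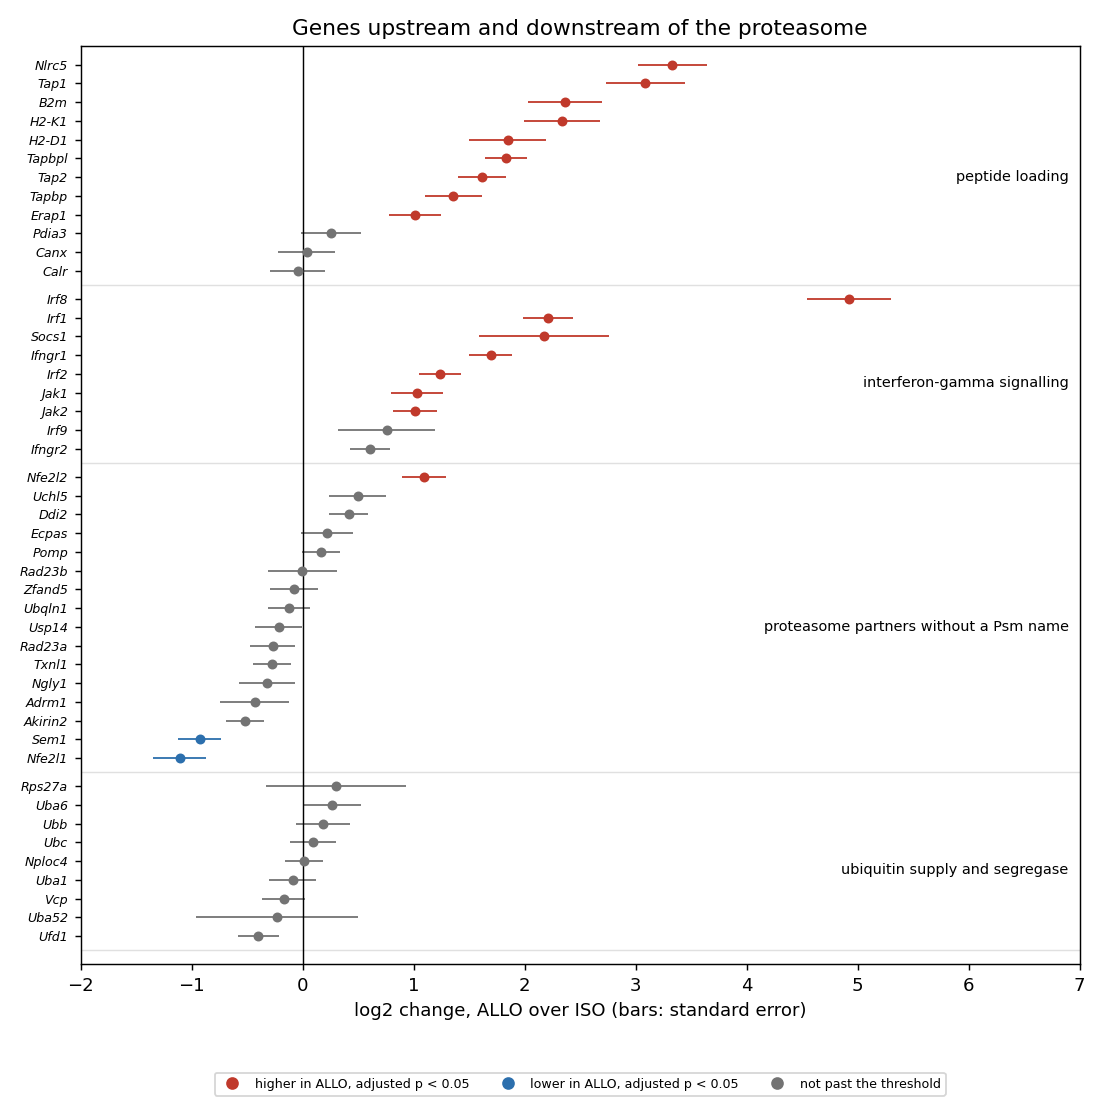
Log2 change, ALLO over ISO, with standard errors as bars, for genes of peptide loading, interferon-gamma signalling, proteasome partners without a Psm name and ubiquitin supply. Ifng is not drawn because both ISO libraries had 0 counts, and 1 other gene of that list is not shown. Peptide loading and interferon-gamma genes lie mostly to the right, and ubiquitin genes sit around 0.

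Of 16 matched proteasome partners without a Psm name, 1 rose, 2 fell and 13 did not pass, with a median of -0.17. Among all genes tested 18.4% rose and 14.8% fell. Nfe2l1, which drives transcription of constitutive proteasome genes when proteasome activity is short, had 193 and 240 CPM in ALLO, against 426 and 508 CPM in ISO. It fell, with a log2 change of -1.11 ± 0.24 (edgeR adjusted p = 0.0236, but 0.0681, 0.0635 and 0.140 without ALLO replicate 1, ISO replicate 1 and ISO replicate 2). Its relative Nfe2l2, the regulator of the oxidative stress response, had 189 and 164 CPM in ALLO, against 86.8 and 78.5 CPM in ISO. It rose by 1.09 ± 0.20 (edgeR adjusted p = 0.0146, and 0.0790 and 0.136 without ISO replicate 1 and ISO replicate 2). Sem1, a small lid subunit, had 34.4 and 43.0 CPM in ALLO, against 74.2 and 73.2 CPM in ISO (edgeR adjusted p = 0.0210, and 0.0514, 0.0764 and 0.0746 without those 3 libraries in turn). Pomp, the maturation factor needed to build either form of the core, had 73.4 and 81.1 CPM in ALLO, against 70.6 and 66.8 CPM in ISO (edgeR adjusted p = 0.496).

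Of 9 genes that supply ubiquitin or extract its targets, none passed in edgeR, DESeq2 or limma-voom, and none had an unadjusted p under 0.05. The ubiquitin gene Ubb had 610 and 636 CPM in ALLO, against 488 and 611 CPM in ISO. Uba1, the main ubiquitin-activating enzyme, had 264 and 259 CPM in ALLO, against 252 and 303 CPM in ISO. The segregase gene Vcp had 242 and 224 CPM in ALLO, against 258 and 266 CPM in ISO.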

How the data were processed

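The values are raw counts, which the authors deposited as 1 column per library in featureCounts layout. Subread 1.6.4 and featureCounts on mm10 are named in the submitters' processing notes, beside R 4.0.3 and DESeq2 1.30.0. Not given in the sources used here were the aligner, annotation release, strand setting and treatment of multi-mapping reads. The deposited gene length, in exonic bases, was used for levels per kilobase.

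GENCODE M21 named 54723 of 54752 IDs. Of genes with 1 to 20 counts, 68.0% to 74.6% had an even count, the pattern of mates counted separately, so a floor of 6 counts (3 pairs) was used. Replicates differed beyond sampling noise (chi-square over degrees of freedom 154 in ALLO and 45.7 in ISO). Floors cover counting error only, and reads carried no molecular identifiers. SDs of the shares hold the spread between the libraries of a group. Standard errors of the log2 change hold that spread as edgeR estimates it, in part from all genes tested.

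Genes were filtered with filterByExpr (minimum count 10), scaled by TMM and fitted on group alone by glmQLFit and glmQLFTest of edgeR 4.0.16, with p adjusted over the 16498 genes kept and 0.05 as threshold. Of the 50 members 49 were kept. Standard errors belong to the log2 change. Members and lists were chosen with earlier results of these data known. Values in every library are given for the 5 immunoproteasome genes, their counterparts and members past the threshold, and other roles by range and examples. From other lists up to 4 members by adjusted p and some chosen for their role after values were seen are named, and 1 listed gene had no matching symbol. A gene of the interferon-gamma list that counts towards its totals is not reported here. Alternatives were other scalings and filters, limma-voom (limma 3.58.1), DESeq2 1.42.0, a replicate block, each library left out, halved counts, and removal of immune receptor and mitochondrial genes. Removal of pancreas genes and coding transcript lengths were added after the data were seen. For 35 members no exonic base was shared, and for Psmd9 and Psmc3ip over 20% were. Scripts ran in Python 3.11.15 (scipy 1.17.1, pandas 2.3.3, matplotlib 3.10.9, Biopython 1.88) and R 4.3.3, and the count test was tested on simulated data.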

Additional observations from a re-analysis of the deposited data

How the results depend on the processing

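Psmb8, Psmb9, Psmb10, Psme1 and Psme2 had a positive change in all 75 gene-by-alternative values and kept their call in 74, the exception being Psme1 without ISO replicate 1 (1.26). The number of members that fell was 3, but 0 with library size alone and 1 with the replicate block, and 0 to 3 when a library was left out. The median of the constitutive subunits was -0.041 with library size alone. The median of the immunoproteasome genes was 2.00 with library size alone, and 1.51 to 2.09 when a library was left out. Genes called numbered 5469, and 3603 to 4651 when a library was left out. A group left with 1 library is assumed to vary like the other. Library size alone gave 65.5% of calls as higher, against 55.4%. Without division by length, the difference in share between ALLO and ISO was 48.4 points for Psmb8, 50.6 for Psmb9 and 39.8 for Psmb10. With coding transcript length it was 48.2 for Psmb8 and 40.9 for Psmb10. The cause of these shifts was not tested. Same-numbered libraries share only a number. The deviations of replicates 1 and 2 correlated across genes at r = 0.10 between ALLO and ISO, and the replicate block gave 4873 calls.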

Other observations

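ALLO replicate 1 held 282201 counts over 16 genes of exocrine pancreas, a list drawn up after the high values of Ctrl, a neighbour of Psmb10, were seen. Ctrb1, a chymotrypsinogen gene, had 75724 counts in ALLO replicate 1 and 0 in ALLO replicate 2, against 6 and 2 in the ISO libraries. Pnlip, the pancreatic lipase gene, had 30243 counts in ALLO replicate 1 and 0 in the other 3 libraries. Ctrl, which lies 1872 bases from Psmb10 and encodes a chymotrypsin-like protease, had 365 CPM in ALLO replicate 1 and 0.772 CPM in ALLO replicate 2, against 0.468 and 0.181 CPM in ISO. Leaving these 16 genes out before scaling gave 5 immunoproteasome genes higher and 3 members lower.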
